A study of Mus musculus with 24 samples.

Results

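The 9 genes described here, Aldh1a2, Aldh1a3, Stra6, Rbp4, Crabp1, Rarb, Rxrg, Cyp26b1 and Dhrs3, carry retinoids through the steps from uptake to receptor. They were taken by symbol from a count table of 45792 genes, of which 16777, these 9 included, had enough counts to be tested. The table holds 24 polyA RNA-seq libraries of mouse primary cortical neurons, taken from E16.5 embryos and kept in culture for 12 days. The KO neurons carry the genotype H2BE-KO/mCherry-KI, in which the gene of the histone variant H2BE is knocked out and mCherry is knocked in, and the WT neurons are wild type. Within each genotype 4 libraries came from neurons given BDNF (brain-derived neurotrophic factor, a secreted growth factor of neurons) for 30 min, 4 from neurons given BDNF for 24 h and 4 from control neurons. The labels state neither the dose of BDNF nor whether embryos were pooled. The genes were picked by symbol with their levels and fold changes in these same libraries in view. Their levels and fold changes are therefore given as a description, without p-values, and "passed the threshold" means an adjusted p under 0.05 in the fit across all tested genes.

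Retinol, the alcohol form of vitamin A, travels in blood bound to the carrier RBP4 and enters some cells through the membrane receptor STRA6. Retinol dehydrogenases turn it into retinaldehyde, DHRS3 turns retinaldehyde back into retinol, and the ALDH1A enzymes oxidise retinaldehyde to retinoic acid. Retinoic acid acts through nuclear receptors, pairs of a RAR and an RXR on DNA, and CYP26 enzymes break it down; in the developing forebrain and in cultured neurons it is known for roles in differentiation and in the scaling of synapses.

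The libraries held 19780486 to 62135270 counts each, and levels are given as CPM, the share of a library scaled to a fixed total after TMM normalization. Of all counts from 1 to 20 in the table, 71.7% were even, as were 154 of the 210 nonzero values of the 9 genes, so a count does not stand for 1 independent molecule and floors cover counting error only. A floor of 3 counts lay between 0.0472 and 0.155 CPM. The cultures labelled KO replicate 4 stood apart, with a mitochondrial share of 18.5% at control, 21.7% at 30 min and 10.9% at 24 h, against 4.18% to 9.34% in the other libraries. The library labelled KO 24 h replicate 4 held Hist2h2be, the gene of H2BE, at 21.25 CPM, against 49.96 to 63.1 CPM in the other KO libraries and 3.15 to 5.83 CPM in WT libraries, and it held both Xist at 144.7 CPM and the Y-linked Ddx3y at 66.27 CPM. Whether that library holds cells of more than 1 culture was not tested. Every KO library thus held more Hist2h2be than every WT library, although the gene is labelled as knocked out. The cause was not tested. The counts span the whole gene, so they check nothing about the deletion. The library labelled KO 30 min replicate 4 held Serpinb2 at 7.59 CPM, against at most 0.746 CPM in the other KO 30 min libraries and 3.54 to 10.25 CPM in the 24 h libraries of both genotypes. KO 30 min replicate 3 had the lowest depth. The library names come in 2 styles: the first covers KO replicate 1 and WT replicates 1 and 2, the second covers KO replicates 2 to 4 and WT replicates 3 and 4, and fold changes within the second are given with the genotype results. Within the first style there is 1 KO culture, so no fit was made.

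KO neurons held far less mRNA of the retinoic acid-making enzyme Aldh1a3 and of the retinoic acid-degrading enzyme Cyp26b1 than WT neurons at all 3 times, while the receptor Rarb was higher. Between KO and WT controls 3 of the 9 genes passed the threshold, Rarb higher and Aldh1a3 and Cyp26b1 lower, beside 21.4% of all tested genes (11.3% higher and 10.1% lower). At 30 min 4 passed, with Crabp1 also lower, beside 28.4% of all tested genes (14.6% higher and 13.8% lower). At 24 h 5 passed, Rarb higher and Aldh1a3, Cyp26b1, Rbp4 and Stra6 lower, beside 13.3% of all tested genes (7.09% higher and 6.16% lower). The median log2 fold change of the 9 genes, KO over WT, was -0.30 at control, -0.82 at 30 min and -0.59 at 24 h, where the median of all tested genes was 0.03, 0.02 and 0.00. In bulk libraries fewer cells of a type and less RNA per cell cannot be told apart.

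After 24 h of BDNF, Stra6 rose and Aldh1a3 and Rarb fell in WT neurons, so 3 of the 9 genes passed beside 18.7% of all tested genes (9.55% higher and 9.13% lower). In KO neurons 1 passed (4 with the culture code as a block), Cyp26b1, which rose, beside 5.61% of all tested genes (2.91% higher and 2.7% lower). With the block 2834 of all 16777 tested genes passed in KO neurons. At 30 min none of the 9 passed edgeR's test in WT neurons, beside 0.37% of all tested genes, or in KO neurons, beside 0.125%; 0 reached an unadjusted p under 0.05 and DESeq2 called 0 in both genotypes. The test of whether the BDNF response differed between genotypes was passed by 0 of the 9 at 30 min, beside 0.0477% of all tested genes, and by 0 at 24 h, beside 0.0358% (0.0238% above 0 and 0.0119% below), with 0 at an unadjusted p under 0.05 and 0 by DESeq2. A change that passed in WT neurons alone is thus not shown to differ from that in KO neurons. The KO and WT comparisons with control share their control libraries across times.

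**Figure D1:**
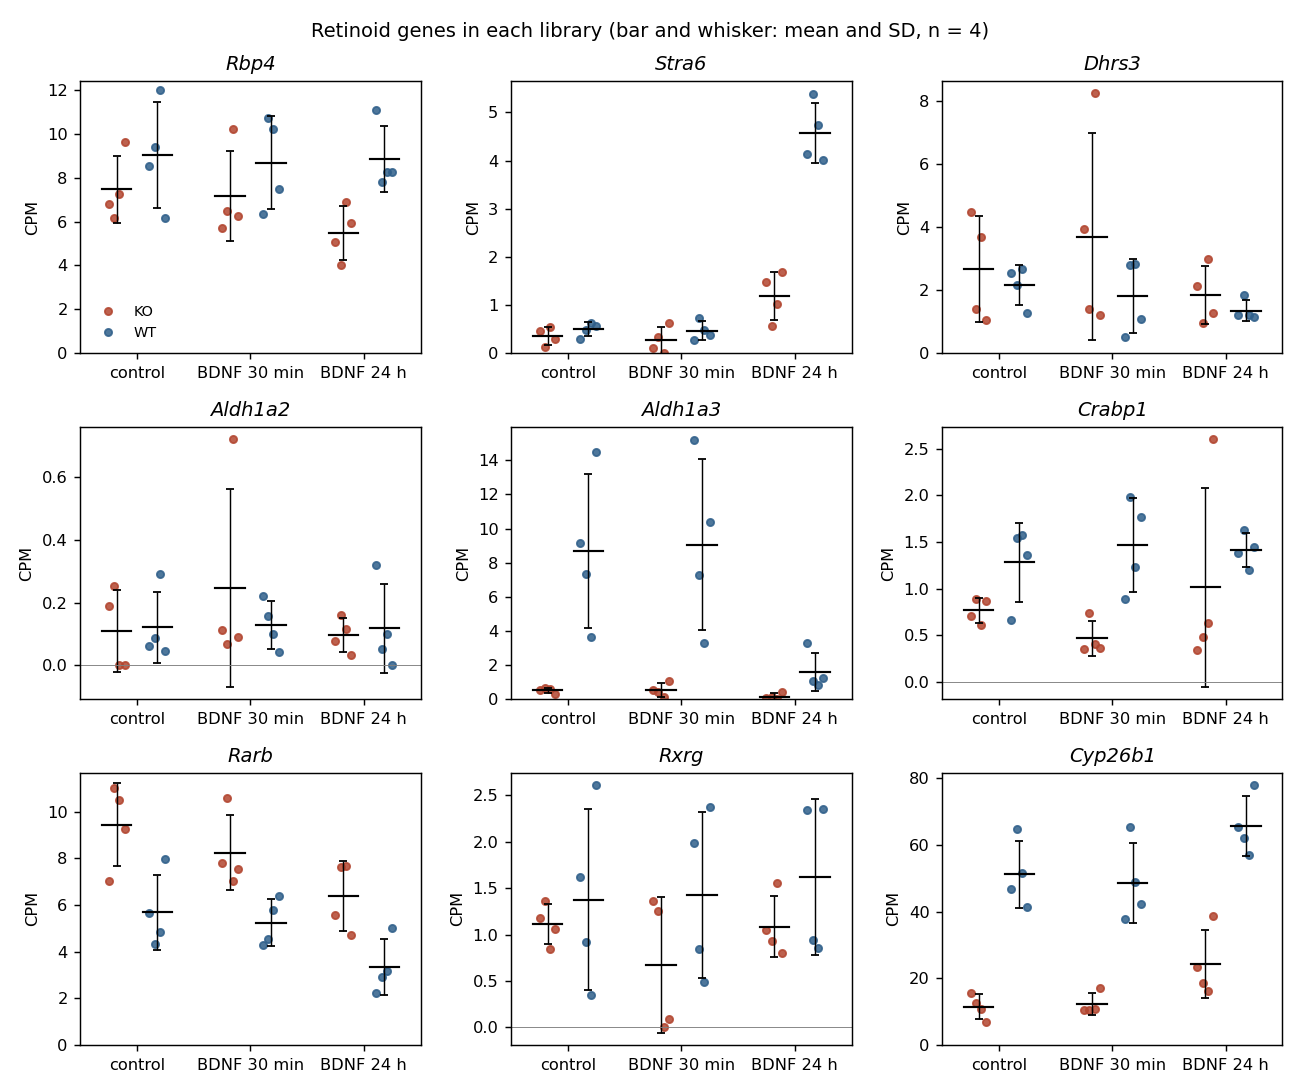
Level of each of the 9 genes in every library, in CPM, for KO (left, red) and WT (right, blue) neurons at control, 30 min and 24 h of BDNF; points are libraries, bars are means and whiskers are SD (n = 4). The Aldh1a3 and Cyp26b1 points of KO neurons lie under those of WT neurons at each time, and the Stra6 means of both genotypes are highest at 24 h.

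Rbp4 encodes the retinol carrier of blood and was the member of highest level per length in KO controls, at 5.56 ± 1.13 RPKM (CPM per kilobase of exon; SD, n = 4). The gene (ENSMUSG00000024990.10) lies at chr19:38116629-38125281 on the minus strand of mm10. At 24 h it had 5.05, 4.03, 6.90 and 5.92 CPM in KO libraries, against 11.1, 7.81, 8.26 and 8.26 CPM in WT libraries. All 4 KO libraries were under all 4 WT libraries, and the log2 fold change was -0.70 ± 0.23 (SE). It was -0.56 within the second naming style and -0.83 to -0.58 with each library left out in turn, and it then passed the threshold without KO replicate 3 or 4 but not without any of the other 6 libraries. At control KO libraries spanned 6.15 to 9.63 CPM and WT libraries 6.16 to 12.0 CPM, and at 30 min KO libraries spanned 5.71 to 10.2 CPM and WT libraries 6.35 to 10.7 CPM. The genotypes overlapped at both of those times, with log2 fold changes of -0.28 ± 0.23 and -0.29 ± 0.23.

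Stra6, the membrane receptor that takes up retinol from RBP4 and was named for its stimulation by retinoic acid, was under 1 CPM in every library before 24 h of BDNF. The gene (ENSMUSG00000032327.12) lies at chr9:58063788-58153996 on the plus strand, and its span overlaps Ccdc33 on the opposite strand and Gm16131 on the same strand; no source used here names the strand setting of the counting, so its counts are uncertain. In WT neurons it had 0.301, 0.484, 0.638 and 0.565 CPM at control, 0.266, 0.740, 0.494 and 0.378 CPM at 30 min, and 4.14, 5.38, 4.73 and 4.02 CPM at 24 h. All WT 24 h libraries lay above all other WT libraries, and Stra6 rose 9.13-fold over WT controls (log2 fold change 3.19 ± 0.54, SE). In KO neurons it had 0.472, 0.127, 0.544 and 0.289 CPM at control, 0.112, 0.338, 0 and 0.632 CPM at 30 min, and 1.47, 0.564, 1.03 and 1.68 CPM at 24 h. All 4 KO libraries at 24 h lay above all 4 KO controls, but the log2 fold change of 1.76 ± 0.54 did not pass the threshold. It passed in DESeq2, at 1.77, and with the culture as a block, at 1.68. At 24 h Stra6 averaged 1.19 ± 0.494 CPM in KO neurons and 4.57 ± 0.625 CPM in WT neurons (SD, n = 4 each), all KO libraries lay under all WT libraries, and the log2 fold change was -1.94 ± 0.50. This was -2.0 within the second naming style, where it did not pass, and it also did not pass without KO 24 h replicate 2, with a range of -2.16 to -1.72 over the 8 fits that left out 1 library. The difference between the genotypes' 24 h responses was -1.43 ± 0.75 on the log2 scale and did not pass.

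Dhrs3, which returns retinaldehyde to retinol and so limits retinoic acid formation, showed no change that passed the threshold. The gene (ENSMUSG00000066026.12) lies at chr4:144892827-144928209 on the plus strand. Its KO libraries differed by culture more than by time: replicates 1 and 3 had 4.48 and 3.70 CPM at control, 3.94 and 8.24 CPM at 30 min and 2.14 and 2.99 CPM at 24 h, while replicates 2 and 4 lay between 0.966 and 1.41 CPM at all 3 times. WT libraries spanned 1.27 to 2.67 CPM at control, 0.531 to 2.84 CPM at 30 min and 1.14 to 1.84 CPM at 24 h. The log2 fold changes, KO over WT, were 0.31 ± 0.57 at control, 1.01 ± 0.57 at 30 min and 0.44 ± 0.58 at 24 h, with overlap at each time.

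Aldh1a3, one of the 3 ALDH1A enzymes that make retinoic acid, had the lowest KO to WT ratio of the 9 genes. The gene (ENSMUSG00000015134.12) lies at chr7:66390890-66427517 on the minus strand. At control it had 0.519, 0.634, 0.611 and 0.289 CPM in KO libraries, against 9.14, 7.32, 3.66 and 14.5 CPM in WT libraries. At 30 min it had 0.522, 0.440, 0.103 and 1.08 CPM in KO libraries, against 15.2, 7.29, 3.31 and 10.4 CPM in WT libraries. At 24 h it had 0.0383, 0.121, 0 and 0.445 CPM in KO libraries, against 3.27, 1.07, 0.801 and 1.23 CPM in WT libraries. Every KO library lay under every WT library of the same time, although WT libraries themselves spread widely. The log2 fold changes, KO over WT, were -4.02 ± 0.66 at control, -4.08 ± 0.66 at 30 min and -3.25 ± 0.71 at 24 h (SE), so the fitted KO level at control was 0.0615 of the WT level. Within the second naming style they were -4.12, -3.68 and -2.31, the last of which did not pass the threshold. Without KO culture 4 and KO 30 min replicate 3 they were -3.87, -4.22 and -4.70.

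With 24 h of BDNF, Aldh1a3 fell to 1.59 ± 1.13 CPM in WT neurons, against 8.65 ± 4.5 CPM in WT controls (SD, n = 4 each), a log2 fold change of -2.44 ± 0.59 with all 24 h libraries under all controls. In KO neurons it averaged 0.151 ± 0.202 CPM at 24 h and 0.513 ± 0.158 CPM in controls, on counts of 2, 6, 0 and 26 at 24 h, and its log2 fold change of -1.67 ± 0.74 did not pass. The count of 26 belongs to KO 24 h replicate 4; without that library the log2 fold change was -3.13 and passed, and with the culture as a block it was -2.03 and passed. The genotypes' 24 h responses differed by 0.78 ± 0.97 on the log2 scale, which did not pass.

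Aldh1a2, the ALDH1A enzyme of the meninges in the developing brain, was near the floor throughout. The gene (ENSMUSG00000013584.5) lies at chr9:71215789-71296243 on the plus strand. It had 130 counts in all, between 0 and 16 in each library, and 3 libraries were at 0. Its highest level was 0.721 CPM in KO 30 min replicate 3 and its highest WT level was 0.319 CPM, so no difference was detectable at this depth.

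Aldh1a1, which belongs to the same enzyme family and is no member of the group of 9, went the other way from Aldh1a3. It averaged 2.53 ± 0.672 CPM in KO neurons and 1.06 ± 0.417 CPM in WT neurons at 30 min (log2 fold change 1.24 ± 0.32, adjusted p = 0.00587 by edgeR's quasi-likelihood test), and 1.70 ± 0.484 CPM in KO neurons and 0.507 ± 0.137 CPM in WT neurons at 24 h (1.73 ± 0.34, adjusted p = 0.00177). All KO libraries lay above all WT libraries at both times; at control the log2 fold change of 0.74 ± 0.32 did not pass (adjusted p = 0.104). Within the second naming style it was 1.5 at 30 min and 1.61 at 24 h and passed at neither time. The 30 min call also did not pass when the compared groups were fitted alone. Like Aldh1a3, Aldh1a1 fell in WT neurons with 24 h of BDNF (-1.32 ± 0.34, adjusted p = 0.00766). Summed per length, the 3 ALDH1A mRNAs reached 0.593 ± 0.111 RPKM in KO controls and 2.18 ± 0.883 RPKM in WT controls, 0.738 ± 0.217 RPKM in KO and 2.23 ± 1.07 RPKM in WT neurons at 30 min, and 0.419 ± 0.0929 RPKM in KO and 0.500 ± 0.310 RPKM in WT neurons at 24 h (SD, n = 4 each). The KO controls spanned 0.482 to 0.748 RPKM, under the WT range of 1.23 to 3.33 RPKM, while at 24 h the KO range of 0.325 to 0.505 RPKM lay inside the WT range of 0.317 to 0.961 RPKM. Aldh1a3 made up 18.95% ± 5.78 of the sum in KO controls and 82.3% ± 12.5 in WT controls, and 8.77% ± 12.5 in KO and 66.9% ± 9.82 in WT neurons at 24 h.

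**Figure D2:**
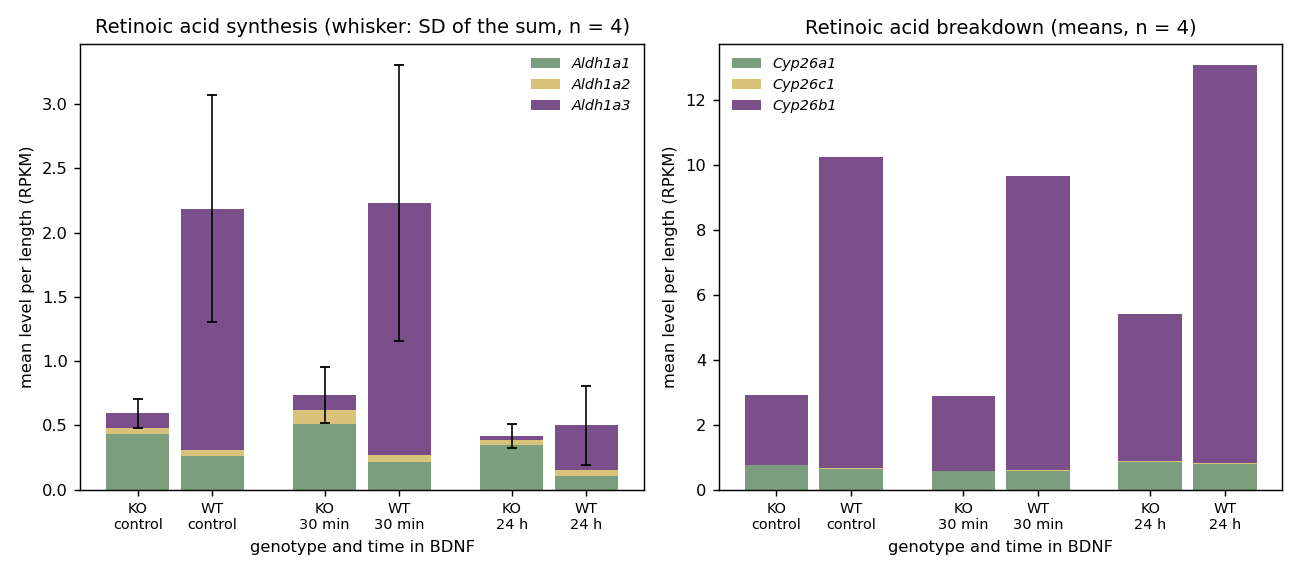
Mean level per length, in RPKM, of the retinoic acid-making enzymes (left panel; whiskers are the SD of the summed level) and of the retinoic acid-degrading CYP26 enzymes (right panel) in KO and WT neurons (n = 4 each) at control, 30 min and 24 h. Aldh1a3 makes up most of the synthesis bars of WT neurons and Aldh1a1 most of those of KO neurons, and Cyp26b1 makes up most of every breakdown bar.

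Crabp1 encodes a protein that binds retinoic acid in the cytoplasm. The gene (ENSMUSG00000032291.8) lies at chr9:54764748-54773110 on the plus strand. At 30 min it had 0.354, 0.745, 0.412 and 0.361 CPM in KO libraries, against 0.885, 1.98, 1.23 and 1.77 CPM in WT libraries. All KO libraries lay under all WT libraries, with a log2 fold change of -1.61 ± 0.49 that was -1.54 within the second naming style and did not pass there. At control KO libraries spanned 0.611 to 0.888 CPM and WT libraries 0.662 to 1.57 CPM, and the log2 fold change of -0.74 ± 0.48 did not pass. At 24 h it had 0.344, 0.483, 0.632 and 2.60 CPM in KO libraries, against 1.38, 1.63, 1.2 and 1.45 CPM in WT libraries. The value of 2.60 CPM is that of KO 24 h replicate 4, above every WT library. With it the log2 fold change was -0.47 ± 0.46, and without it -1.55, which passed.

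Cyp26b1, the CYP26 enzyme known for clearing retinoic acid in the brain, was the member of highest level per length in WT neurons, at 9.56 ± 1.87 RPKM in controls. The gene (ENSMUSG00000063415.10) lies at chr6:84571414-84593908 on the minus strand. At control it had 15.7, 12.6, 10.9 and 6.83 CPM in KO libraries, against 46.8, 64.8, 51.7 and 41.4 CPM in WT libraries. At 30 min it had 10.6, 10.6, 10.7 and 17.2 CPM in KO libraries, against 37.8, 65.3, 48.8 and 42.3 CPM in WT libraries. At 24 h it had 23.4, 18.7, 16.2 and 38.8 CPM in KO libraries, against 65.4, 62, 57.1 and 78.1 CPM in WT libraries. The genotypes did not overlap at any of the 3 times, and the log2 fold changes, KO over WT, were -2.14 ± 0.26, -1.99 ± 0.26 and -1.43 ± 0.25 in order of time. Within the second naming style they were -2.21, -1.84 and -1.46, the last of which did not pass the threshold. Without KO culture 4 and KO 30 min replicate 3 they were -1.97, -2.19 and -1.75.

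In KO neurons Cyp26b1 rose with 24 h of BDNF, to 24.3 ± 10.2 CPM against 11.5 ± 3.69 CPM in KO controls (log2 fold change 1.07 ± 0.26), and all 24 h libraries lay above all controls. The call did not hold in every fit: the log2 fold change was 0.75 without KO 24 h replicate 4 and 0.89 without KO control replicate 4, and passed in neither case. It also did not pass with the compared groups alone or within the second naming style, which both keep culture 4. Nor did it pass with KO culture 4 and KO 30 min replicate 3 left out together. Over the 8 alternatives other than leaving out 1 library it was 0.58 to 1.28. In WT neurons Cyp26b1 averaged 65.6 ± 8.96 CPM at 24 h and 51.2 ± 10.02 CPM in controls, which did not pass (0.36 ± 0.25). The genotypes' responses differed by 0.71 ± 0.36 on the log2 scale, which did not pass. Of its relatives Cyp26a1 averaged 1.14 to 1.68 CPM in each group and passed nowhere (KO over WT 0.25 ± 0.37 at control, adjusted p = 0.695 by edgeR), and Cyp26c1 was at most 0.021 RPKM. Per length Cyp26b1 had 2.15 RPKM in KO controls and 9.56 RPKM in WT controls, while Cyp26a1 had 0.753 RPKM in KO controls and 0.645 RPKM in WT controls.

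Rarb encodes a retinoic acid receptor whose own promoter is a known target of retinoic acid. The gene (ENSMUSG00000017491.8) lies at chr14:16430839-16819156 on the minus strand and overlaps Top2b on the opposite strand, so its counts are uncertain for the reason given for Stra6. At control it had 7.01, 11, 10.5 and 9.24 CPM in KO libraries, against 5.65, 4.31, 4.85 and 7.95 CPM in WT libraries. At 30 min it had 7.78, 10.6, 7.01 and 7.54 CPM in KO libraries, against 4.29, 4.52, 5.78 and 6.39 CPM in WT libraries. At 24 h it had 5.59, 7.61, 7.68 and 4.69 CPM in KO libraries, against 2.23, 2.91, 3.18 and 5.03 CPM in WT libraries. All KO libraries lay above all WT libraries at 30 min, and at control and 24 h WT replicate 4 reached into the KO range. The log2 fold changes, KO over WT, were 0.73 ± 0.24, 0.66 ± 0.24 and 0.93 ± 0.24 in order of time and passed. Within the second naming style they were 0.66, 0.45 and 0.69 and did not pass. With each library left out in turn they were 0.61 to 0.93 at control, 0.48 to 0.75 at 30 min and 0.78 to 1.18 at 24 h, and 6, 6 and 3 of the 8 fits did not pass; at 24 h these were the fits without KO replicate 2, KO replicate 3 or WT replicate 1. With 24 h of BDNF Rarb fell to 3.34 ± 1.2 CPM in WT neurons, against 5.69 ± 1.61 CPM in WT controls (-0.77 ± 0.24), and 5 of 8 such fits, spanning -1.04 to -0.56, did not pass. In KO neurons it averaged 6.39 ± 1.49 CPM at 24 h and 9.42 ± 1.77 CPM in controls (-0.56 ± 0.24), which did not pass, and which passed at -0.57 with the culture as a block.

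Rarb and the CYP26 genes are among the genes that retinoic acid is known to induce, and the 250 bases before the RefSeq starts (GRCm38.p6) of Rarb, Cyp26a1 and Cyp26b1 are shown to compare 2 windows that hold a repeat with 1 that does not. A direct repeat was searched for on both strands as 2 core motifs in the same orientation with 5 bases between them, where a core motif reads AGGTCA by the usual consensus, AGTTCA in the first variant, GGGTCA in another or GGTTCA in the last, the usual spacing of a RAR and RXR pair. Capitals mark the match, which the last sequence lacks.
Rarb (chr14:16575477-16575726, minus strand): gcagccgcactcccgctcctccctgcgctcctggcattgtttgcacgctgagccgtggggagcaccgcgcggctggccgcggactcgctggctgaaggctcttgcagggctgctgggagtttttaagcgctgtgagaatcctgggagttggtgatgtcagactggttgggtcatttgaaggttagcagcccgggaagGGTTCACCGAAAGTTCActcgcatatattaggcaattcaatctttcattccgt
Cyp26a1 (chr19:37697558-37697807, plus strand): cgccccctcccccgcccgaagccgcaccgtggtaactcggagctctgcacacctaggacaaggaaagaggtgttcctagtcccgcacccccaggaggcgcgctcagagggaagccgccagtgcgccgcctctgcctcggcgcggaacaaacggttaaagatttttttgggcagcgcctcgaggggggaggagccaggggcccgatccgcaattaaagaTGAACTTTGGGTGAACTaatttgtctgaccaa
Cyp26b1 (chr6:84593811-84594060, minus strand): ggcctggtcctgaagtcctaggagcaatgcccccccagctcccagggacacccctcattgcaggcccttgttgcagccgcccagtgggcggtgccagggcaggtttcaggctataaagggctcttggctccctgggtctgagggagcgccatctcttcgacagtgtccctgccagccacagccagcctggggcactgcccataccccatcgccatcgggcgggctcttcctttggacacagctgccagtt
The match before Rarb covers bases 53 to 37 before the start and reads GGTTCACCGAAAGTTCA, and this start lies inside the annotated span of the gene. The match before Cyp26a1 covers bases 32 to 16 before the start and reads TGAACTTTGGGTGAACT, with the repeat on the opposite strand. Such a match was found in 32 of 32851 windows of the same length (0.0974%), from 31 of 27025 genes, and none of the other members with a window in the RefSeq table (8 of 9 had one, all but Aldh1a3) held one. The same repeat with 2 bases between the copies was in 0.268% of windows and with 1 base in 0.222%. Neither was in any of the 8 members with a window, and Aldh1a3 was not searched. The match is a description of the letters: Rarb and Cyp26a1 share it, while KO neurons had higher Rarb and no Cyp26a1 difference that passed.

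Rxrg encodes a retinoid X receptor, the partner of RARs, that is enriched in parts of the brain. The gene (ENSMUSG00000015843.8) lies at chr1:167598384-167639623 on the plus strand. It had 1.18, 1.36, 0.849 and 1.06 CPM in KO controls, against 1.62, 0.923, 0.348 and 2.61 CPM in WT controls. At 30 min it had 1.36, 1.25, 0 and 0.0904 CPM in KO libraries, against 1.99, 0.850, 0.494 and 2.37 CPM in WT libraries. At 24 h it had 1.05, 0.926, 1.55 and 0.804 CPM in KO libraries, against 2.34, 0.944, 0.851 and 2.35 CPM in WT libraries. WT replicates 1 and 4 were higher than WT replicates 2 and 3 at every time, and the genotypes overlapped throughout. The log2 fold changes of -0.30 ± 0.69, -0.95 ± 0.69 and -0.59 ± 0.68 did not pass. Among receptors per length, Rara led the RARs in KO controls (2.49 RPKM, with Rarb at 1.79 and Rarg at 0.809 RPKM) and in WT controls (1.80 RPKM, with Rarg at 1.18 and Rarb at 1.08 RPKM). Rxrb led the RXRs at 12.8 RPKM in KO and 14.6 RPKM in WT controls, where Rxrg was at 0.485 RPKM in KO and 0.599 RPKM in WT controls.

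**Figure D3:**
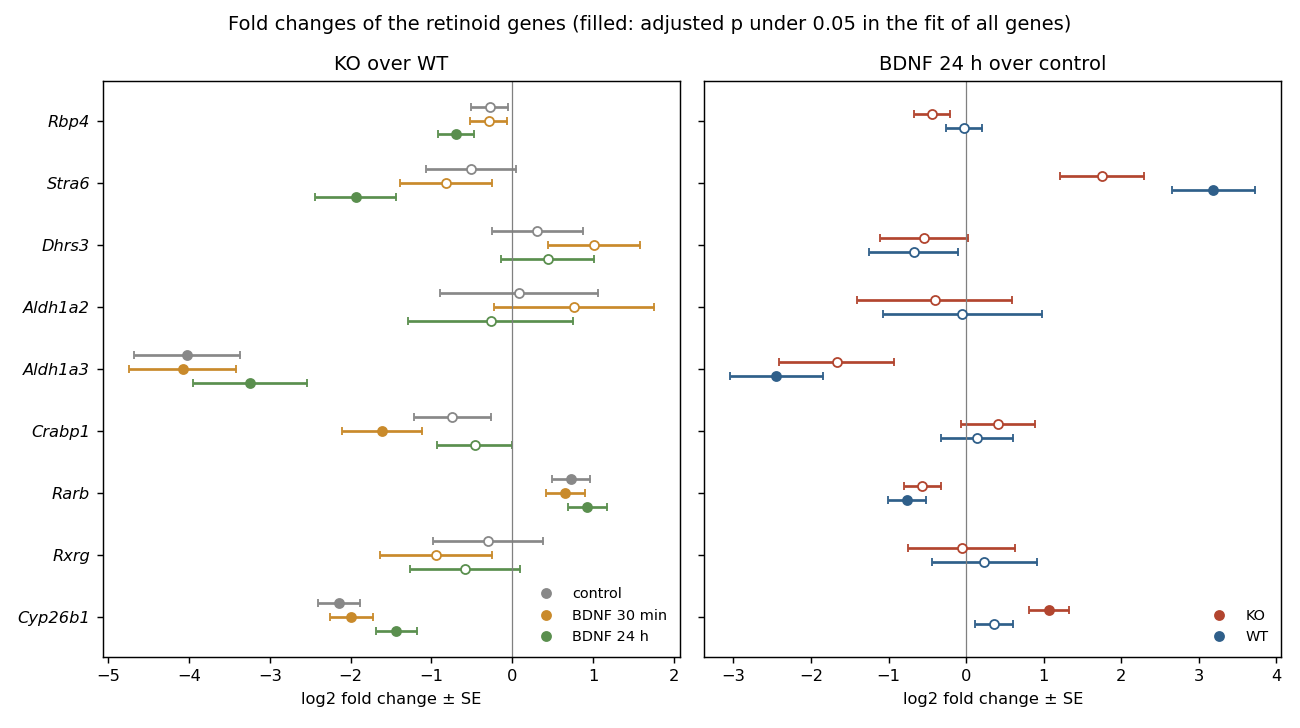
Log2 fold change with SE of the 9 genes for KO over WT at the 3 times (left) and for 24 h of BDNF over control in KO and WT neurons (right); filled points passed the threshold in the fit of all genes. Aldh1a3 and Cyp26b1 lie left of 0 and Rarb right of 0 at all 3 times, and in the right panel the Stra6 point of WT neurons lies farthest right.

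The rest of the pathway was described with a list of 47 other retinoid genes, 37 of which were tested. KO over WT, 2 were higher and 3 lower at control, beside 21.4% of all tested genes. At 30 min 3 were higher and 4 lower, beside 28.4%. At 24 h 3 were higher and 3 lower, beside 13.3%. The median log2 fold changes of the list were 0.05, -0.05 and -0.02, where those of all tested genes were 0.03, 0.02 and 0.00. Rdh11, a retinol dehydrogenase, had 82.6 ± 8.79 CPM in KO controls and 134.6 ± 21.9 CPM in WT controls, and was lower in KO neurons at control (-0.70 ± 0.15, adjusted p = 0.00185 by edgeR), at 30 min (-0.60 ± 0.15, adjusted p = 0.00512) and at 24 h (-0.49 ± 0.15, adjusted p = 0.0356). Rara, the receptor RARα, was higher in KO neurons at 30 min (0.57 ± 0.21, adjusted p = 0.0432 by edgeR) and 24 h (0.72 ± 0.21, adjusted p = 0.0225), and not at control (0.47 ± 0.21, adjusted p = 0.114). The receptor corepressors Nrip1 (-0.59, -0.68 and -0.53 in order of time; adjusted p = 0.0153, 0.00435 and 0.0418 by edgeR) and Tbl1xr1 (-0.34, -0.53 and -0.50; adjusted p = 0.0431, 0.00185 and 0.00757) were lower in KO neurons at all 3 times. Ttr, which carries retinol with RBP4 and is made by choroid plexus, passed at control and 24 h, but it had 638.6 CPM in KO control replicate 3 and 256 CPM in KO 24 h replicate 1, and under 1 CPM in every other library at those times. Without those libraries it did not pass. Fabp5, a fatty acid carrier that can also bring retinoic acid to the nucleus, and the corepressor enzyme Hdac3, the genes of highest level in their roles, passed in none of the contrasts as fitted. Fabp5 was however lower in KO neurons once the KO replicate 4 library of the time compared was left out, at -0.74 at control, -0.86 at 30 min and -0.79 at 24 h (adjusted p = 0.0266, 0.00314 and 0.0218 by edgeR). With KO culture 4 and KO 30 min replicate 3 left out together, Fabp5 passed at all 3 times (-0.73, -0.96 and -0.77). In that fit it also passed with 24 h of BDNF in both genotypes (0.39 in KO and 0.43 in WT neurons), and Hdac3 passed for KO over WT at 24 h (0.19). With 1 library left out in turn, Rara did not pass in 7 of 8 fits at 30 min and 6 at 24 h (0.47 to 0.75 and 0.55 to 0.94), Nrip1 in 1 at control and 7 at 24 h (-0.68 to -0.50 and -0.59 to -0.46), Tbl1xr1 in 6 at control (-0.42 to -0.29) and Rdh11 in 5 at 24 h (-0.70 to -0.39). Within the second naming style the 1 call of these genes that remained was Tbl1xr1 at 30 min (-0.66). There Rdh11 was -0.54, -0.41 and -0.36 in order of time, Nrip1 was -0.65, -0.77 and -0.53, and Rara was 0.79 at 30 min and 0.59 at 24 h.

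With 24 h of BDNF 1 of the 37 rose and 2 fell in WT neurons, beside 18.7% of all tested genes, and 1 fell in KO neurons, beside 5.61%. Among all tested genes 0.37% passed at 30 min in WT and 0.125% in KO neurons. The tests of a genotype difference were passed by 0.0477% at 30 min and 0.0358% at 24 h. None of the 37 passed in any of these, the count by edgeR being 0. At 30 min 0 in WT and 2 in KO neurons reached an unadjusted p under 0.05, and for the genotype difference 2 at 30 min and 1 at 24 h did, with 0 by DESeq2. The gene that rose was Dhrs9, which makes retinaldehyde from retinol; it was named after its values were seen, being under 1 CPM on average. It had 1.35 ± 0.455 CPM at 24 h and 0.0996 ± 0.0915 CPM in WT controls (3.79 ± 0.93, adjusted p = 0.00557 by edgeR), with all 24 h libraries above all controls. The value within the second naming style was 3.68 and did not pass. Rxrb, the RXR of highest level, fell in both genotypes: it had 41.3 ± 1.86 CPM at 24 h and 50.9 ± 3.04 CPM in KO controls (-0.30 ± 0.08, adjusted p = 0.0366 by edgeR), and 44.6 ± 0.140 CPM at 24 h and 58.1 ± 3.90 CPM in WT controls (-0.38 ± 0.08, adjusted p = 0.00244). The Rxrb call in KO neurons did not pass in 7 of 8 fits that left out 1 library (-0.33 to -0.26). The remaining 2 low genes, also named after their values were seen, were Rdh16, a retinol dehydrogenase with close relatives that could share its reads, higher in KO neurons at control (0.563 ± 0.426 CPM in KO and 0.0846 ± 0.0777 CPM in WT neurons, adjusted p = 0.0275 by edgeR) and at 30 min (adjusted p = 0.00675), and Lrat, which stores retinol as esters and was lower in KO neurons at 30 min (0.0347 ± 0.0479 CPM in KO and 0.418 ± 0.209 CPM in WT neurons, adjusted p = 0.0449). Without KO control replicate 3 or 4 or WT control replicate 2 or 4 the control call of Rdh16 did not pass (2.09 to 3.32 over the 8 fits). With KO culture 4 and KO 30 min replicate 3 left out together, its 30 min value was 1.26 and did not pass. Lrat did not pass in 6 of 8 fits that left out 1 library (-4.26 to -2.86). Neither gene passed within the second naming style.

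A list of 34 genes known from other systems to respond to retinoic acid had 19 tested members. Nrip1, described above, is in this list and in that of the other retinoid genes. It is among the lower genes of both at all 3 times. KO over WT, 1 was higher and 6 were lower at control, beside 11.3% higher and 10.1% lower among all tested genes. At 30 min 1 was higher and 8 were lower, beside 14.6% and 13.8%, and at 24 h 0 were higher and 2 lower, beside 7.09% and 6.16%, with list medians of -0.51, -0.65 and -0.46 on the log2 scale. Meis2, a homeodomain factor, was lower at control (-0.66, adjusted p = 0.00967 by edgeR) and 30 min (-0.68, adjusted p = 0.00614), as were the actin-associated Rai14 (-1.66, adjusted p = 0.00129, and -1.71, adjusted p = 0.00079) and Zfp423, a zinc finger factor required for response to retinoic acid in some cells (-1.61, adjusted p = 0.0144, and -2.42, adjusted p = 0.000634). Dio2, the enzyme that activates thyroid hormone, and the repressor Bhlhe40 were lower at 30 min (-1.99, adjusted p = 0.0071, and -0.78, adjusted p = 0.021 by edgeR). Cdkn1a, a cell cycle inhibitor that many stimuli induce, was higher in KO neurons at control (0.51, adjusted p = 0.00408 by edgeR) and 30 min (0.36, adjusted p = 0.0287), and not at 24 h (-0.11, adjusted p = 0.636). It also rose with 24 h of BDNF in both genotypes, to 184.5 ± 19.98 CPM against 102.7 ± 13.9 CPM in KO controls (0.84, adjusted p = 0.000311 by edgeR) and to 198.8 ± 23.3 CPM against 72.3 ± 6.18 CPM in WT controls (1.46, adjusted p = 6.29e-08). With 24 h of BDNF 2 of the 19 rose and 1 fell in WT neurons, beside 9.55% higher and 9.13% lower among all tested genes. In KO neurons 1 of the 19 rose and 0 fell, beside 2.91% and 2.7%. Left out in turn, single libraries ended the calls of Cdkn1a between genotypes at 30 min in 4 of 8 fits (0.20 to 0.39) and of Bhlhe40 in 3 (-0.96 to -0.62). None of the genotype calls named in this list passed within the second naming style. At control and 30 min Meis2 was -0.57 and -0.55, Rai14 was -1.47 and -1.66, Zfp423 was -1.67 and -2.53 and Cdkn1a was 0.51 and 0.43. At 30 min Dio2 was -1.92 and Bhlhe40 was -0.67. The 30 min calls of Meis2 and Cdkn1a also did not pass with KO culture 4 and KO 30 min replicate 3 left out together. With 30 min of BDNF edgeR called 0 of the 19 in either genotype, beside 0.37% of all tested genes in WT and 0.125% in KO neurons. Of the 19, 3 in WT and 1 in KO neurons reached an unadjusted p under 0.05, and DESeq2 called 0.

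**Figure D4:**
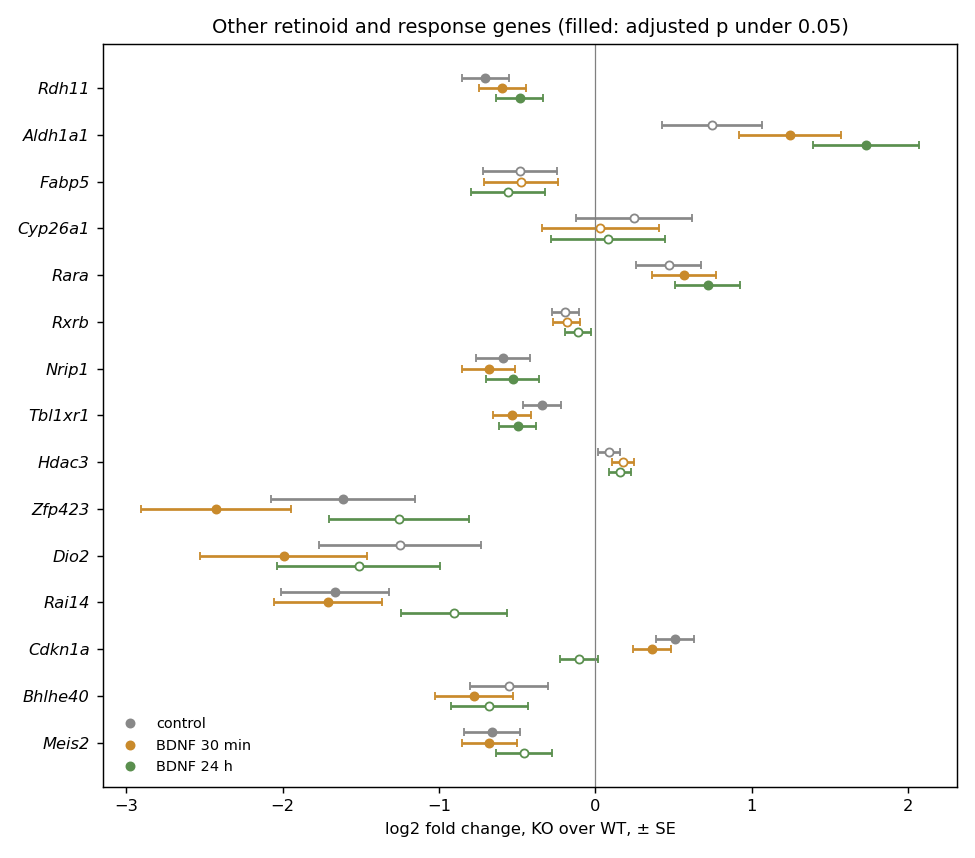
Log2 fold change, KO over WT, with SE at control, 30 min and 24 h for the other retinoid genes and retinoic acid response genes named in the text; Ttr is left out because of its scale, and filled points passed at an adjusted p under 0.05. Aldh1a1 and Rara lie right of 0 and Rdh11, Nrip1, Tbl1xr1, Meis2, Rai14 and Zfp423 left of 0 at each time.

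Markers of other cell types moved with genotype as well. The counts of marker genes called below stand beside 11.3% higher and 10.1% lower among all tested genes at control, KO over WT. At 30 min these shares were 14.6% and 13.8%, and at 24 h 7.09% and 6.16%. Summed interneuron markers were 2411 to 3251 CPM in KO controls and 1091 to 2217 CPM in WT controls, with 7 of 14 genes higher in KO neurons. The excitatory cortical neuron markers summed to 693.5 to 764.1 CPM in KO controls and 968.5 to 1337 CPM in WT controls, with 7 of 10 genes lower, and each of the 10 reached 1 CPM in at least 1 library. Astrocyte markers summed to 184.9 to 326.8 CPM in KO controls and 461.8 to 632.4 CPM in WT controls, with 2 of 10 genes lower, beside 7 of the 10 at 30 min and 1 at 24 h. Striatal and lateral ganglionic neuron markers summed to 264 to 338.2 CPM in KO controls and 109.6 to 187.2 CPM in WT controls, with 2 of 14 genes higher and 4 lower. Meningeal and fibroblast markers, the cells that make Aldh1a2 in the embryo, summed to 11.5 to 36.48 CPM in KO controls and 29.59 to 50.3 CPM in WT controls, and 7 of the 14, among them Foxc1, Twist1 and Slc6a13, were under 1 CPM in every library. Of the 10 tested, 1 was higher and 0 lower in KO controls, with a list median log2 fold change of 0.09. At 30 min 0 were higher and 1 lower (median 0.29), and at 24 h 2 were higher and 0 lower (median 0.57). With 24 h of BDNF the meningeal markers summed to 14.92 to 36.02 CPM against 11.5 to 36.48 CPM in KO controls, and to 16.02 to 23.03 CPM against 29.59 to 50.3 CPM in WT controls, with no gene of the list called. Oligodendrocyte lineage markers summed to 35.59 to 57.75 CPM at 24 h against 23.01 to 40.12 CPM in KO controls, and to 55.91 to 88.84 CPM at 24 h against 35.09 to 44.08 CPM in WT controls, where 1 gene, Mbp, named after its values were seen, was higher. Among all tested genes 9.55% were higher and 9.13% lower with 24 h of BDNF in WT neurons, and 2.91% and 2.7% in KO neurons. Choroid plexus markers summed to 2.328 to 5.929 CPM at 24 h against 9.712 to 14.82 CPM in WT controls, with Enpp2 lower. In KO neurons they overlapped, at 4.489 to 274.2 CPM against 6.558 to 679.7 CPM. The meningeal, oligodendrocyte and choroid plexus sums of WT neurons all lay apart from their controls beside the WT changes of Aldh1a3, Rarb and Stra6. Between genotypes, microglia and macrophage markers summed to 1.856 to 6.353 CPM in KO controls and 1.055 to 1.596 CPM in WT controls. Endothelial and mural sums overlapped there. WT replicate 4 had the highest interneuron sums of the WT libraries at each time, 2217, 2458 and 2823 CPM in order of time. Its excitatory sums were the lowest, 968.5, 908.2 and 699.5 CPM. It had the highest WT level of Rarb at each time. Its Aldh1a3 level of 14.5 CPM was however the highest of the WT controls, away from the KO range. The second naming style holds this culture and WT replicate 3. The part of cell makeup in the retinoid differences was not tested. KO 24 h replicate 4 had the lowest interneuron sum of the KO 24 h libraries, 1748 CPM, and the highest excitatory and astrocyte sums, 893.8 and 476.8 CPM, and it held the highest KO 24 h levels of Aldh1a3, Crabp1, Cyp26b1 and Stra6.

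**Figure D5:**
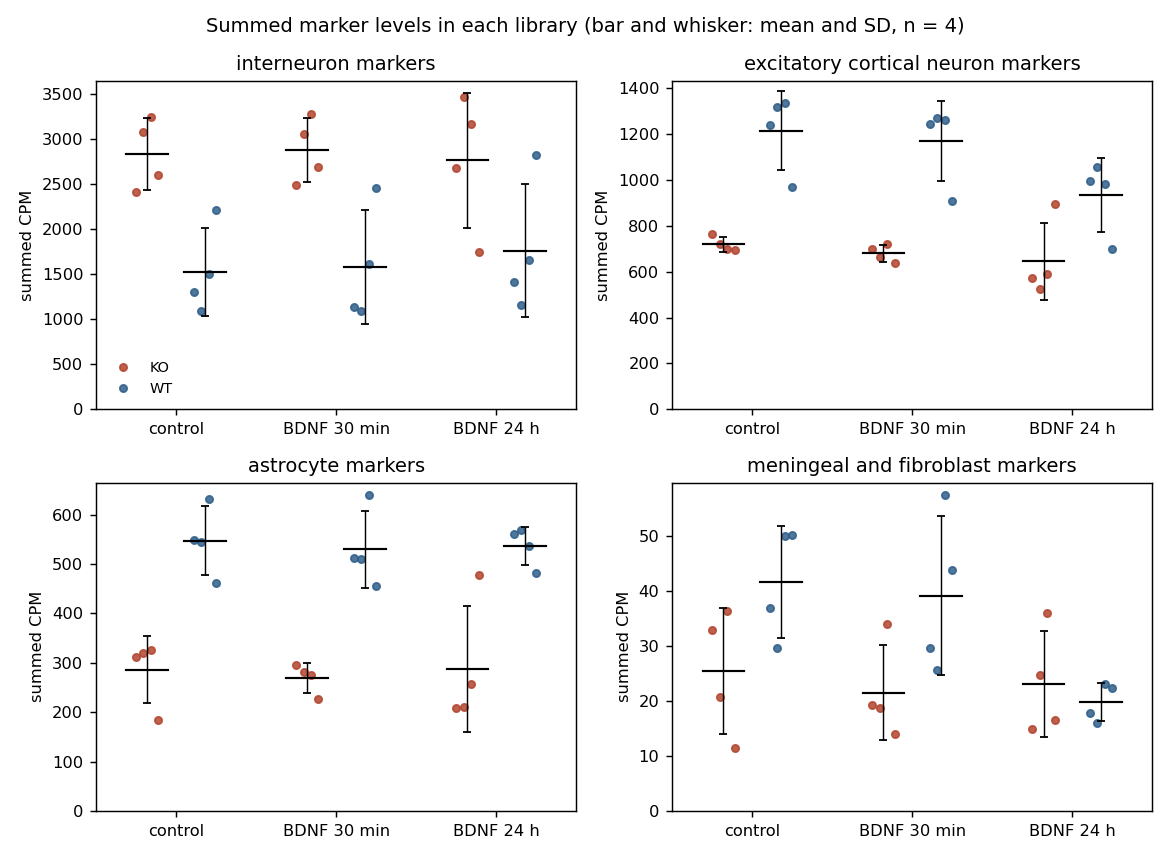
Summed CPM of 4 lists of cell type markers in every library for KO (left, red) and WT (right, blue) neurons at the 3 times; bars are means and whiskers are SD (n = 4). The interneuron sums of KO controls lie above those of WT controls and the excitatory and astrocyte sums lie below them.

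The genes whose levels followed each member most closely over the 24 libraries were found by Pearson correlation of log2 CPM among 11924 protein-coding genes, as a description. All points share the split into 2 genotypes, so for the nearest gene r is also given within the 12 libraries of each. Those 12 libraries still hold 3 conditions and 4 cultures. The r within a genotype therefore includes any change with 24 h of BDNF, such as that of Stra6, and is not free of group structure. Aldh1a3 was followed by Dclk3 (r = 0.947; 0.762 within KO and 0.958 within WT), Mbtd1 (0.945) and Syt16 (0.943). Stra6 was followed by Gadd45a (r = 0.918; 0.878 within KO and 0.928 within WT), Cep41 (0.912) and Cdr2 (0.890). Rarb was followed by Grik2 (r = 0.954; 0.821 within KO and 0.958 within WT), Crebl2 (0.935) and Aldh5a1 (0.934). Cyp26b1 was followed by Sqle (r = 0.939), Islr2 (0.937) and Lss (0.936), but Sqle reached r = 0.857 within KO and -0.038 within WT libraries. Islr2 reached 0.729 within KO and 0.566 within WT libraries, and Lss 0.826 and 0.269. The nearest gene was Naaa for Rxrg (0.891), Kctd15 for Crabp1 (0.845), Dkk3 for Rbp4 (0.800), Mcam for Dhrs3 (0.792) and Wwp2 for Aldh1a2 (0.685). Within KO libraries these reached 0.888, 0.764, 0.863, 0.883 and 0.81 in that order. Within WT libraries they reached 0.859, 0.503, 0.413, 0.714 and 0.445. Among the 9 genes themselves the pair farthest from 0 was Cyp26b1 and Rarb (r = -0.807), and Aldh1a3 and Cyp26b1 reached 0.637. Both values are over all 24 libraries and so include the split between genotypes. Within each genotype they are not given here.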

How the data were processed

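The authors deposited raw counts per gene for 24 polyA RNA-seq libraries (stranded TruSeq kit, per the labels' protocols), 4 for each of 2 genotypes and 3 conditions. STAR 2.7.9a, mm10, DESeq2 1.38.3, limma 3.54.2 and edgeR 3.40.2 are named in the submitters' processing notes; no source used here names the counting program, its strand setting or the annotation. Of the gene IDs, 98.8% matched GENCODE M21 by the ID without its version, and the 563 without a symbol held 0.0662% of counts. The 9 genes, the other lists and the alternatives were chosen with earlier results of these data known.

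These deposited counts entered the quasi-likelihood test of edgeR 4.0.16 (R 4.3.3). The filter was filterByExpr (count minimum 10, total 15); libraries were scaled by TMM (factors 0.824 to 1.07), and 6 group means were fitted to all 24 libraries (18 residual degrees of freedom, biological coefficient of variation 23.5%). Each of 9 contrasts was adjusted by Benjamini-Hochberg over 16777 genes, with a threshold of 0.05. CPM used TMM-scaled library sizes, RPKM the union exon length of M21, and correlations log2 CPM with a prior count of 2. The fit was run on simulated counts of the same depths and groups, with known changes in the WT 24 h libraries alone. These counts were drawn independently from the fit's own dispersion. The run therefore cannot show how the test fares with libraries that share a culture or stand apart. Of the other retinoid and response genes, the text names those called in any contrast with a mean of at least 1 CPM (the 8 with the largest change where more passed) and the gene of highest level per length in each role, and for each member the 3 genes most correlated with it; 1 gene that this rule names is not reported here. Libraries are grouped as the labels give them, and the series' design text calls them biological replicates; library names share a code, taken here as the culture, across conditions within a genotype, so the 3 conditions of a genotype may not be independent. Alternatives were DESeq2 1.42.0, RLE scaling, no filter, the compared groups alone, the culture as a block, the naming style as a covariate or the second style alone, KO culture 4 and KO 30 min replicate 3 left out together, and each library left out in turn. Promoter windows came from the RefSeq table (GRCm38.p6). Python 3.11.15, numpy 2.4.6, pandas 2.3.3 and matplotlib 3.10.9 made the tables and figures.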

Additional observations from a re-analysis of the deposited data

Results flagged for a closer look

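In 8 of the 54 groups of 4 libraries checked for the 9 genes, 1 library lay so far from the others that its gap to the nearest, divided by the group's range, was above Dixon's critical value; chance flags about 1 in 20 groups. In KO 30 min libraries, Aldh1a2 was 0.721 CPM in replicate 3, against 0.0677 to 0.112 CPM in the others, Rbp4 was 10.2 CPM in replicate 3, against 5.71 to 6.46 CPM, Crabp1 was 0.745 CPM in replicate 2, against 0.354 to 0.412 CPM, and Cyp26b1 was 17.2 CPM in replicate 4, against 10.6 to 10.7 CPM. KO 30 min replicate 3 is the library of lowest depth, and the mitochondrial share of replicate 4 was 21.7%. Replicate 4 also held Serpinb2 at 7.59 CPM, inside the range of the 24 h libraries. Its Cyp26b1 level lay inside the KO 24 h range of 16.2 to 38.8 CPM. Its Aldh1a3 level, 1.08 CPM, lay above all KO 24 h libraries. The part of depth, mitochondrial share or a possible 24 h state in these values was not tested. In KO 24 h libraries, Crabp1 was 2.60 CPM in replicate 4, the library with both Xist and Ddx3y, against 0.344 to 0.632 CPM in the others. In WT libraries, Aldh1a2 was 0.290 CPM in control replicate 3, against 0.0470 to 0.0879 CPM, Rbp4 was 11.1 CPM in 24 h replicate 1, against 7.81 to 8.26 CPM, and Dhrs3 was 1.84 CPM in 24 h replicate 2, against 1.14 to 1.23 CPM.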

How the results depend on the processing

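Of the 16 calls of the 9 genes, 9 passed in every fit that left out 1 library and 4 in every other alternative, namely Aldh1a3 and Cyp26b1 between KO and WT at control and at 30 min; 0 reversed. For KO over WT, the second naming style alone gave 2 calls among the 9 genes at 30 min (4 as reported) and 0 at 24 h (5), and among the other retinoid genes 0 at control (5), 1 at 30 min (7) and 0 at 24 h (6). For BDNF at 24 h it gave 0 in all 4 counts (3 and 3 in WT, 1 and 1 in KO neurons). Of all 17357 genes tested there, 599 passed at control, 957 at 30 min and 11 at 24 h, KO over WT. As reported these were 3592, 4760 and 2223 of 16777. With 24 h of BDNF 237 of all genes passed there in WT and 19 in KO neurons, against 3133 and 942 as reported. Fitting the compared groups alone gave 2 other genes at 30 min, KO over WT, 8 other genes in WT neurons at 24 h, and 0 of both lists in KO neurons at 24 h. In that order, 2688 of 15491, 4945 of 15306 and 552 of 15602 of all tested genes passed in these fits. Leaving out KO culture 4 together with KO 30 min replicate 3, the other genes gave 11 calls at control and 14 at 24 h, KO over WT, 8 in WT and 4 in KO neurons at 24 h. There 5326 of all 17393 tested genes passed at control and 5435 at 24 h, KO over WT. With 24 h of BDNF 5564 passed in WT and 1641 in KO neurons. DESeq2 called 6 other genes in WT and 2 of the 9 genes in KO neurons at 24 h, and with no filter 0 other genes passed in KO neurons. Of all genes DESeq2 called 3701 of 17748 in WT and 1506 of 15551 in KO neurons at 24 h. With no filter 664 of 29388 passed in KO neurons at 24 h. These alternatives change the libraries or genes fitted; otherwise the cause was not tested.

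With each library left out in turn, the 9 genes gave 2 to 3 calls at control, 3 to 4 at 30 min and 2 to 6 at 24 h, KO over WT, 2 to 3 in WT and 0 to 1 in KO neurons at 24 h, and the other retinoid genes gave 3 to 5, 5 to 7 and 2 to 8, KO over WT, 3 to 4 in WT and 0 to 2 in KO neurons at 24 h. Among all tested genes these fits called 2667 to 3191 at control, 3620 to 4802 at 30 min and 1216 to 3138 at 24 h, KO over WT. With 24 h of BDNF they called 2311 to 2839 in WT and 482 to 985 in KO neurons. Libraries of a replicate number share a code in their names within a genotype, taken here as the culture; the labels do not say what it marks. Of 24 such pairs 22 correlated above 0.1 in their deviations (0.046 to 0.462); both others hold KO 30 min replicate 3, so the pairing was not taken as settled and the block stayed an alternative. With it as a replicate block, 4 of the 9 genes (Aldh1a3, Cyp26b1, Rarb and Stra6) and 5 other genes passed in KO neurons at 24 h, and 7 other genes in WT neurons. Of all 16777 genes 2834 passed in KO and 5298 in WT neurons with that block. Between KO and WT neurons no paired analysis was possible because the genotypes share only a number. At under 1 CPM, as for Aldh1a2, depth limits what could be seen.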
